A study of Xenopus laevis with 8 samples.

Results

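The apelin receptor gene aplnr is present as 2 copies in the allotetraploid frog Xenopus laevis, aplnr.L and aplnr.S. Both were followed over cultured wild-type ectodermal explants at the early neurula stage. The names long and short copy used here refer to the chromosome set, L or S, and not to gene length. The copies were taken by symbol and were 2 of the 45035 genes of the count table. They had been chosen by their levels in these libraries, higher with each single protein and apart when both proteins were present, so their own levels and fold changes are given as a description without a test. The 8 RNA-sequencing libraries formed 4 groups of 2: libraries 1 and 2 from control explants, 3 and 4 from explants that expressed Chordin, 5 and 6 from explants that expressed Flag-Pnhd (Pinhead with a Flag tag), and 7 and 8 from explants that expressed the pair. Controls carried no expressed protein that the labels name. The labels do not say how the proteins were delivered, or whether a group's 2 libraries were made from separate embryos. The p-values therefore rest on the spread of these libraries alone, and that spread may be technical. The series asks how the pair of proteins induces dorsal mesodermal genes.

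Aplnr is a cell-surface receptor that couples to inhibitory G proteins and is cleared from the surface with the help of arrestins. It has 2 known peptide ligands, apelin (gene apln) and Elabela, also called Toddler (gene apela), both cut from secreted precursors. In zebrafish the Elabela signal guides the movement of mesendodermal cells during gastrulation and supports the heart field, and in Xenopus the receptor gene has long been used as a marker of vessel precursors. Chordin binds bone morphogenetic proteins (BMPs) outside the cell and blocks them, and Pinhead is likewise secreted in the early embryo.

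The libraries held 15052017 to 19677493 counts, and levels are in CPM, the usual scale of counts relative to the scaled library total, where 1 CPM stood for 14.5 to 19.0 counts. The labels held: chrd.S had 793 to 934 CPM in the 4 libraries labelled with Chordin and at most 1.17 CPM elsewhere, and pnhd.L had 1254 and 739 CPM with Pinhead alone, 429 and 486 CPM in the libraries of the pair and at most 2.89 CPM elsewhere. The Pinhead level itself was thus 2.18-fold lower with both than with Pinhead alone, without overlap (log2 fold change -1.12 ± 0.26, edgeR adjusted p = 0.00473, or -0.69 without library 5), a call not made in DESeq2 (adjusted p = 0.0966). Within the group with both proteins, 12 muscle marker genes summed to 40.3 CPM for library 7 and 94.8 for library 8, and 20 epidermal marker genes to 14358 and 8525 CPM. Control libraries reached an epidermal sum of 47688 and 48838 CPM and Chordin libraries one of 16764 and 16898 CPM, and 19 of the 20 epidermal markers had counts in control.

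aplnr.L was expressed in every group and stood about as high with either protein as with both. Control libraries had 5.37 and 4.40 CPM (89 and 67 counts). Chordin libraries had 24.4 and 23.8 CPM, Pinhead libraries 18.1 and 19.0 CPM, and libraries of the pair 21.9 and 19.0 CPM. The 2 control libraries were the lowest of the 8. From low to high the group means were 4.88 ± 0.690 CPM for control, 18.6 ± 0.599 with Pinhead, 20.4 ± 2.10 with both and 24.1 ± 0.465 with Chordin (SD, n = 2). The Pinhead libraries and those with both overlapped, so these neighbours in the order did not differ beyond their spread, while the other neighbours did not overlap. The summed level of 24 neural markers was 260 to 295 CPM in control and 5151 to 5557 CPM with Chordin. It was 184 to 265 CPM with Pinhead and 6184 to 6554 CPM with both. The part of neural or epidermal cells in the aplnr.L levels was not tested for any group.

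aplnr.S followed another order, with Pinhead alone far above the rest. Control libraries had 1.27 and 1.51 CPM (21 and 23 counts) and Chordin libraries 4.43 and 3.99 CPM. Pinhead libraries had 17.4 and 14.5 CPM (329 and 211 counts), and libraries of the pair 2.43 and 3.19 CPM (39 and 57 counts). No 2 groups overlapped. The group means ran in the order control (1.39 ± 0.171 CPM), both (2.81 ± 0.537), Chordin (4.21 ± 0.313) and Pinhead (15.9 ± 2.00; SD, n = 2). In the libraries with both proteins the short copy thus lay between control and Chordin and far below Pinhead alone. The long copy lay near both single-protein groups there.

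**Figure D1:**
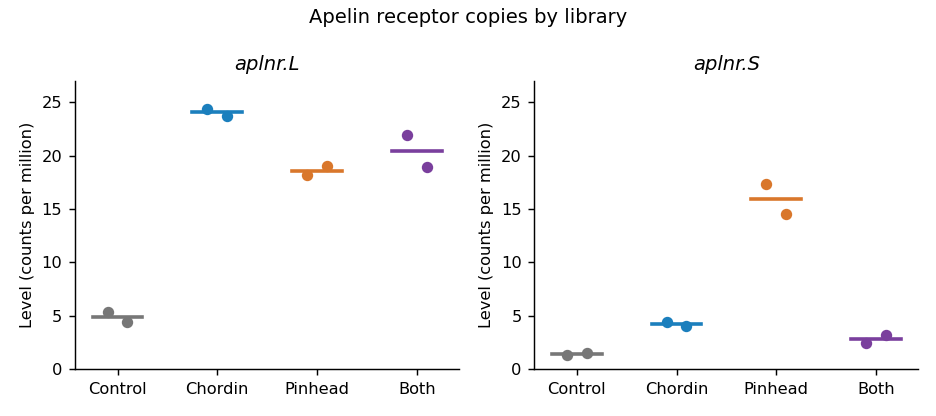
Levels of aplnr.L and aplnr.S in CPM (linear axes) in control, Chordin, Pinhead and both-protein explants. Points are the 2 libraries of a group and bars their mean: aplnr.L lies at 18.1 to 24.4 CPM in all 6 libraries with an expressed protein, and aplnr.S exceeds 4.43 CPM with Pinhead alone.

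Against control, aplnr.L was 4.92-fold higher with Chordin, 3.79-fold with Pinhead and 4.17-fold with both. The log2 fold changes were 2.30 ± 0.15, 1.92 ± 0.15 and 2.06 ± 0.15 (SE from the fit of all 8 libraries). For aplnr.S the folds were 3.03, 11.5 and 2.03, or 1.60 ± 0.25, 3.52 ± 0.23 and 1.02 ± 0.26 on the log2 scale. Each copy was higher in both libraries of each group than in both control libraries. Of the 23130 genes tested, 42.6% lay higher without overlap for Chordin, 28.6% for Pinhead and 43.3% for the pair, and for the last 2 of these groups 29.2% and 41.3% lay lower.

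Neither copy was higher with both proteins than with Chordin alone. With both proteins aplnr.L differed from Chordin alone by -0.24 ± 0.13 and aplnr.S by -0.58 ± 0.22 on the log2 scale, each lower in both libraries, as were 27.1% of all genes tested. Against Pinhead alone, aplnr.S was 5.65-fold lower with both (log2 fold change -2.50 ± 0.21), while aplnr.L differed by 0.14 ± 0.13 and its libraries overlapped. Since pnhd.L was 2.18-fold lower with both, neither this comparison nor the interaction was made at an equal Pinhead level, and the part of that level in the aplnr values was not tested. In this comparison 39.8% of all genes tested were lower without overlap and 41.1% higher. The interaction, which is the Pinhead effect with Chordin minus that without it, was -2.16 ± 0.19 for aplnr.L and -4.10 ± 0.32 for aplnr.S. Thus on the log2 scale both copies had less than the sum of the single effects, the short copy by more.

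The summed aplnr level hid the difference between the copies. It averaged 6.27 ± 0.519 CPM for control, 28.3 ± 0.777 for Chordin, 34.5 ± 1.41 for Pinhead and 23.3 ± 1.56 for the pair (SD, n = 2). The Pinhead libraries were highest in the sum although they were not highest for aplnr.L, because the short copy was nearly as frequent as the long one there. In these pieces of tissue, fewer cells of a type and less RNA per cell cannot be told apart.

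The share of the long copy among aplnr counts was 80.9% and 74.4% for the control libraries and 84.6% and 85.6% for Chordin. It was 51.1% and 56.7% for Pinhead and 90.0% and 85.6% for the pair. Exact binomial 95% intervals, which cover counting error only, were 72.3% to 87.8% and 64.2% to 83.1% in the 2 control libraries. They were 47.3% to 55.0% and 52.1% to 61.1% with Pinhead, and 86.6% to 92.8% and 81.8% to 88.9% with both. The Pinhead intervals lay below those of every other library, and the intervals with both proteins overlapped those with Chordin (81.3% to 87.6% and 82.3% to 88.6%). Both of their intervals also overlapped that of control library 1, and that of library 8 overlapped control library 2 as well. The share therefore differed most between Pinhead alone and the other groups, and the copies were nearest to equal shares with Pinhead alone. The library shares with both proteins (90.0% and 85.6%) overlapped those with Chordin (84.6% and 85.6%). Overlap of intervals cannot settle whether these groups differ, and their difference was not tested. How reads that match both copies were counted is not given in the sources used here, so the split between copies is uncertain. No length was used either, so the share compares groups and says nothing of which copy is more abundant per length.

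**Figure D2:**
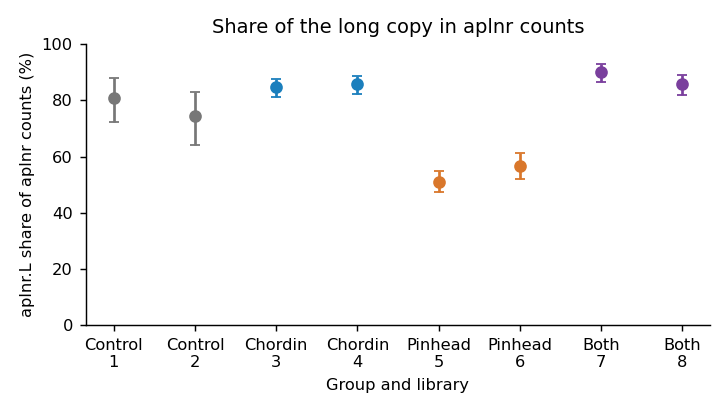
Percent of aplnr counts assigned to aplnr.L in each of the 8 libraries, with exact binomial 95% intervals that cover counting error only. Pinhead libraries 5 and 6 stand at 51.1% and 56.7%, and the other 6 libraries at 74.4% to 90.0%.

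The aplnr pair was set beside all 6596 pairs of a long and a short copy that were both tested. It had been chosen because its copies part in these libraries. Its place among the pairs follows in part from that choice and is a description only. The log2 ratio of long to short copy, with 0.5 CPM added to each, was 1.73 and 1.29 for control and 2.34 and 2.43 for Chordin. It was 0.06 and 0.38 for Pinhead and 2.94 and 2.40 for the pair. From control to Pinhead it shifted by -1.29, and 3.05% of pairs shifted at least as far in either direction. From Pinhead to both it shifted by 2.45, and 4.87% of pairs shifted at least as far. From control to both it shifted by 1.16, and 23.9% of pairs did so. The first of these was 5.88% without library 1 and 1.42% among the 4231 pairs whose copies averaged at least 5 CPM each. The second was 8.71% without library 7, 2.74% without library 8 and 2.84% among those more abundant pairs. The third was 36.2% without library 7. The median absolute shift of all pairs was 0.22 with Pinhead and 0.55 with both, each against control.

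**Figure D3:**
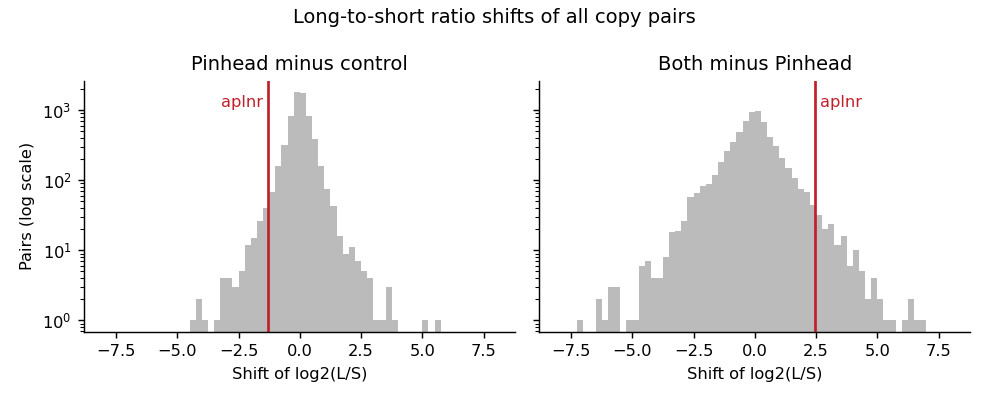
Histograms of the shift in log2(L/S) for 6596 copy pairs, Pinhead minus control and both minus Pinhead, with the number of pairs on a log scale. The line marks the aplnr pair at -1.29 and 2.45, and 3.05% and 4.87% of pairs shifted at least as far in either direction. The pair was chosen because its copies part, so its place is a description.

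Other pairs moved much farther between control and both proteins. Among pairs averaging at least 5 CPM, the ratio of long to short copy rose most for pnp (11.67), a purine nucleoside phosphorylase gene, slc38a3 (6.88), an amino acid transporter gene, and nipal2 (5.97). It fell most for pcdh10 (-7.42), a protocadherin gene, loc100487159-like (-7.37) and krt19 (-5.82), a keratin gene. The short copy of loc100487159-like had 0 counts in control, and pnp.L had 8 counts over the control libraries, a level below the 0.5 CPM added. The sizes of the loc100487159-like and pnp shifts therefore depend on that addition. The pnp copies show the size of such shifts: pnp.L stood at 0.252 ± 0.0149 CPM in control and 208 ± 54.9 CPM with both, and pnp.S at 80.4 ± 3.55 and 6.84 ± 3.98 CPM (SD, n = 2).

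The apelin gene apln.L went down wherever Chordin was expressed. aplnr.L was high in those 4 libraries and also in the 2 Pinhead libraries, where apln.L was highest. Control libraries had 14.3 and 11.7 CPM, and Chordin libraries 0.111 and 0.819 CPM (2 and 15 counts). Pinhead libraries had 20.5 and 17.6 CPM, and libraries of the pair 1.93 and 0.783 CPM (31 and 14 counts). All 4 libraries with Chordin lay below all 4 without it. The fall with Chordin was -4.78 ± 0.48 on the log2 scale (edgeR adjusted p = 2.68e-05), or -3.96 without library 3 and -6.76 without library 4. The fall with both was -3.28 ± 0.41 against control (adjusted p = 0.000102; -4.06 without library 7) and -3.83 ± 0.41 against Pinhead (adjusted p = 3.87e-05; -4.62 without library 7). With Pinhead alone apln.L was 0.55 ± 0.31 above control and was not called in the edgeR fit (adjusted p = 0.297). It was called when the 2 groups were fitted alone (adjusted p = 0.0205) and without the filter on low counts (adjusted p = 0.0400). Between both and Chordin the difference of 1.5 ± 0.66 was not called (adjusted p = 0.194), and it was called without library 8 (2.04, adjusted p = 0.0134) and without the filter (adjusted p = 0.00298). Without library 3 or 7 this difference was 0.69 and without library 4 it was 3.49, none of them called (edgeR adjusted p = 0.107 to 0.612). Its interaction was 0.95 ± 0.73 (edgeR adjusted p = 0.434), with 0.13 without library 3, 0.14 without library 7, 1.48 without library 8 and 2.93 without library 4, none of them called.

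The other apelin copy, apln.S, was scarcely detected and did not pass the filter. It had 0 to 2 counts in libraries 1 to 7 and 21 counts (1.17 CPM) in library 8. In the Chordin libraries the 0 counts allow a level of up to 0.166 and 0.164 CPM.

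The Elabela gene apela.L also fell with Chordin alone, but not when Pinhead was present too. Control libraries had 7.85 and 5.84 CPM, and Chordin libraries 0.277 and 0 CPM (5 and 0 counts, the latter allowing up to 0.164 CPM). Pinhead libraries had 6.75 and 8.05 CPM, and libraries of the pair 2.99 and 6.38 CPM. The fall with Chordin was -5.57 ± 0.67 on the log2 scale (edgeR adjusted p = 7.86e-05), or -4.57 without library 4. Without library 3 the group left had no counts. Both proteins exceeded Chordin alone by 5.03 ± 0.70 (adjusted p = 0.00226), or 4.03 without library 4 and 4.38 without library 8. Against control, both proteins gave -0.54 ± 0.39 and were not called (edgeR adjusted p = 0.252), with a call without library 8 (-1.17, adjusted p = 0.00824). Pinhead alone gave 0.11 ± 0.38 (edgeR adjusted p = 0.898), with the sign turned without library 2 (-0.087) or 6 (-0.016). Against Pinhead, both proteins gave -0.64 ± 0.39 (edgeR adjusted p = 0.179), with a call without library 8 (-1.28, adjusted p = 0.00448) and without the filter (adjusted p = 0.0188). The interaction was 4.92 ± 0.84 (adjusted p = 0.00881), a call lost without library 4 (3.92, adjusted p = 0.0568).

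The short Elabela copy apela.S was highest with both proteins. Control libraries had 0.905 and 2.17 CPM (15 and 33 counts) and Chordin libraries 0.609 and 0.546 CPM. Pinhead libraries had 0.949 and 0.894 CPM, and libraries of the pair 3.11 and 3.41 CPM (50 and 61 counts). The libraries with both lay above all others. It rose from Pinhead to both by 1.81 ± 0.41 (edgeR adjusted p = 0.00369). From Chordin to both it rose by 2.48 ± 0.43 (adjusted p = 0.00649), a call lost without library 3 or 4 (adjusted p = 0.0781 and 0.0898). Its rise from control to both, 1.1 ± 0.38 (edgeR adjusted p = 0.0298), lost its call when library 1 (0.60, adjusted p = 0.193) or library 8 (adjusted p = 0.0553) was left out, in DESeq2 (adjusted p = 0.121) and when those groups were fitted alone (adjusted p = 0.0827), and was 1.84 without library 2. Its fall with Chordin, -1.39 ± 0.47 (edgeR adjusted p = 0.0269), lost its call when library 2 was left out (-0.64, adjusted p = 0.289), likewise library 3 (adjusted p = 0.0910) or library 4 (adjusted p = 0.119), and in DESeq2 (adjusted p = 0.0613). With Pinhead alone it differed from control by -0.72 ± 0.44 (edgeR adjusted p = 0.342), with the sign turned without library 2 (0.030). The interaction, 3.2 ± 0.62 (adjusted p = 0.0143), lost its call without library 2, 3, 4 or 5 (adjusted p = 0.0560 to 0.0839).

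Over the 3 ligand genes tested, 3 fell with Chordin, 0 were called with Pinhead, and 1 rose and 1 fell with both, each against control. For Pinhead the count was also 0 in DESeq2 and 0 at an unadjusted p under 0.05, and it was 1, apln.L, with the 2 groups fitted alone or without the filter. The background is wide: with Chordin 63.7% of the genes tested were called (31.7% up and 32.0% down), with Pinhead 10.7% (6.75% and 3.92%) and with the pair 65.4% (33.3% and 32.1%). Between both and Chordin 10.7% were called (6.46% up and 4.25% down), between both and Pinhead 61.7% (30.7% and 31.0%), and in the interaction 11.0% (5.24% positive and 5.72% negative). The summed level of the 4 ligand genes was 19.8 to 23.2 CPM in control, 0.997 to 1.37 CPM with Chordin, 26.7 to 28.2 CPM with Pinhead and 8.16 to 11.7 CPM with both. The receptor sum and the ligand sum were thus both highest with Pinhead alone, and Chordin explants had a high receptor sum with few ligand transcripts.

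**Figure D4:**
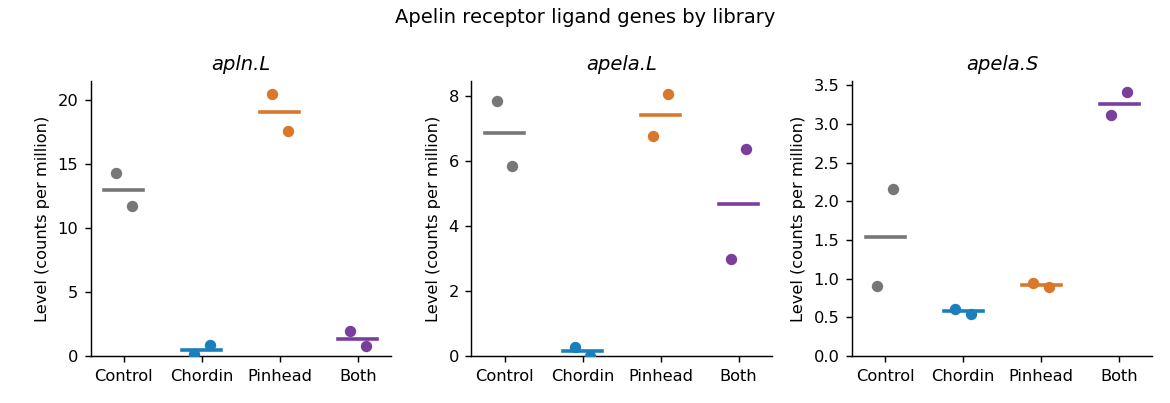
Levels of apln.L, apela.L and apela.S in CPM (linear axes, each with its own range) by group, with points for the 2 libraries and bars for their mean. apln.L is at most 1.93 CPM in the 4 libraries with Chordin, apela.L at most 0.277 CPM with Chordin alone, and apela.S at least 3.11 CPM with both.

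Of 30 tested genes on a list of ligand processing and receptor signalling, 12 rose and 7 fell with Chordin (40.0% and 23.3%, beside 31.7% and 32.0% of all genes tested). The median log2 fold change was 0.23 against 0 over all genes tested. The list also took in genes of other peptide receptors and an associated protein, agtr1, bdkrb2 and agtrap. pcsk5.L, a proprotein convertase gene, stood at 5.94 ± 0.884 CPM in control and 49.6 ± 1.66 CPM in Chordin explants (SD, n = 2), 8.36-fold higher (edgeR adjusted p = 2.46e-07). A pair of genes of inhibitory-type G protein alpha subunits rose as well, gnao1.S 4.01-fold and gnai2.L 4.13-fold (edgeR adjusted p = 1.25e-06 and 6.71e-06). Another of that family, gnaz.L, fell 63.6-fold, from 63.5 ± 2.95 to 0.990 ± 0.0873 CPM (edgeR adjusted p = 3.12e-06). The convertase genes pcsk6.L and furin.L fell 6.35-fold and 6.53-fold (edgeR adjusted p = 4.31e-06 and 2.30e-05). The other copies of these genes did not all follow. From control to Chordin the mean of pcsk5.S went from 5.38 to 4.12 CPM and that of furin.S from 8.45 to 8.29 CPM. In contrast, gnao1.L went from 3.32 to 9.32 CPM and gnaz.S from 16.9 to 5.28 CPM.

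With both proteins 13 of the 30 genes rose and 9 fell against control (43.3% and 30.0%, beside 33.3% and 32.1% of all genes; median 0.38 against 0.03 over all), among them pcsk5.L (6.76-fold higher), gnaq.S of the Gq family (3.43-fold higher), pcsk6.L (6.69-fold lower) and the convertase gene pcsk7.L (3.18-fold lower; edgeR adjusted p at most 1.27e-05 for each). Against Pinhead alone, 11 rose and 10 fell (36.7% and 33.3%, beside 30.7% and 31.0%; median 0.06 against 0.03), with pcsk5.L 4.51-fold and gnao1.L 4.01-fold higher. With Pinhead alone 4 rose and 1 fell (13.3% and 3.33%, beside 6.75% and 3.92% of all genes; median 0.13 against -0.0050). The rises were 0 without library 1 or 2, 2 without library 3 or 4 and 1 without library 5, and the fall was absent without any 1 of libraries 1 to 6 and 2 in number without library 7 or 8. The receptor kinase genes adrbk2.S and grk5.S were among the rises, 2.75-fold and 1.48-fold (edgeR adjusted p = 0.00717 and 0.0106). Both calls were lost without library 1 or 2, and that of adrbk2.S also without library 5.

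Of 31 tested genes of vessel precursors, the cells that aplnr is used to mark in Xenopus, 13 rose and 13 fell with Chordin (median -0.19 against 0 over all), 2 rose and 1 fell with Pinhead (-0.06 against -0.0050), and 14 rose and 12 fell with both (1.32 against 0.03). Against Pinhead alone, 12 rose and 12 fell with both (0.50 against 0.03). The shares up and down were 41.9% and 41.9% with Chordin, 6.45% and 3.23% with Pinhead, 45.2% and 38.7% with both against control and 38.7% and 38.7% against Pinhead. Over all genes tested they were 31.7% and 32.0%, 6.75% and 3.92%, 33.3% and 32.1%, and 30.7% and 31.0%, so the Pinhead shares lay near the background and the even splits were those of the whole table. The single fall with Pinhead was 0 in number without any 1 of libraries 1 to 5 and 3 without library 7 or 8. etv2.L, the ETS factor gene that starts the vessel programme, went from 0.953 ± 0.323 to 31.0 ± 2.23 CPM in Chordin explants (SD, n = 2), 32.6-fold up (edgeR adjusted p = 3.32e-07), and stood at 7.31 ± 0.848 CPM with both. The neuropilin gene nrp2.L, which also acts in axon guidance, rose 20.6-fold with Chordin and 21.4-fold with both (edgeR adjusted p = 5.40e-07 and 5.80e-07). The ETS gene ets1.S fell 102-fold with Chordin and the Sox gene sox7.S 147-fold (edgeR adjusted p = 3.98e-06 and 5.67e-05), from 17.5 and 78.0 CPM in control. ets1.S and sox7.S were thus well expressed in control ectodermal explants, and which cells expressed them was not tested.

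With Pinhead alone lmo2.S, a cofactor gene of blood and vessel precursors, rose from 1 count over the control libraries to 77 counts (2.35 ± 0.566 CPM; edgeR adjusted p = 0.00281). npr3.L, a natriuretic peptide receptor gene, rose from 4 counts to 78 (edgeR adjusted p = 0.00430). The homeobox gene hhex.L fell from 21.3 ± 2.24 to 3.75 ± 2.39 CPM (edgeR adjusted p = 0.0181), a call lost without any 1 of libraries 1 to 5 and in DESeq2 (adjusted p = 0.561). With both proteins the claudin gene cldn5.S reached 12.1 ± 0.548 CPM from 2 counts over the control libraries (edgeR adjusted p = 5.43e-06). The GATA factor gene gata2.L, which is abundant in ectoderm, fell 12.5-fold (edgeR adjusted p = 3.83e-05), and its log2 fold change of -3.64 was -4.60 without library 7 and -3.04 without library 8.

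The 24 narrower endothelial markers summed to 16.5 to 17.7 CPM for control, 36.0 to 41.0 CPM for Chordin, 16.6 to 16.8 CPM for Pinhead and 17.2 to 17.6 CPM for the pair. The higher Chordin sum was that of etv2.L: without this gene the other 23 markers summed to 15.4 to 17.02, 6.53 to 8.36, 16.0 to 16.5 and 9.72 to 10.5 CPM, lower with Chordin than in control. Of the 24, 19, 19, 21 and 22 had counts in these groups. The other 23 markers did not all fall with Chordin. From control to Chordin the mean of tek.S went from 8.19 to 1.59 CPM and that of flt4.S from 2.84 to 0.220 CPM. The scarcer flt1.L rose from 0.126 to 1.76 CPM and esam.L from 0.0302 to 0.991 CPM. The vascular cadherin copy cdh5.S was at 0 in every group. Its other copy cdh5.L had 3, 1 and 0 counts over control, Chordin and Pinhead libraries. With both proteins cdh5.L had 26 counts (0.727 and 0.810 CPM). The 14 blood markers summed to 3.1 to 5.87 CPM over all libraries. With Pinhead alone the endothelial sum lay within the range of the control libraries. Much of that sum was tek.S, at 8.19 ± 0.450 CPM in control and 6.94 ± 0.857 CPM with Pinhead (SD, n = 2). The sum therefore says little of the scarcer markers. The part of these cell types in the aplnr levels was not tested.

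Of 56 tested early mesoderm, endoderm and heart field genes, 17 rose and 5 fell with Pinhead, the group with most aplnr.S. These were 30.4% and 8.93%, beside 6.75% and 3.92% of all genes tested, which also rose more often than they fell, and the difference from all genes was not tested. The falls numbered 2 without library 1, 2 or 5 and 10 without library 7 or 8. The median log2 fold change was 1.01, or 0.22 with genes lacking counts in a group set to their bound, against -0.0050 over all genes. The T-box mesoderm gene vegt.S went from 0.501 ± 0.0593 to 42.3 ± 8.33 CPM and t.L, a brachyury copy, from 1 count over the control libraries to 60.4 ± 14.0 CPM (SD, n = 2; edgeR adjusted p = 1.89e-05 and 8.65e-06). The LIM homeobox gene isl1.L fell 1.97-fold (edgeR adjusted p = 0.00236). From Pinhead to both proteins, 27 of the 56 fell and 13 rose (48.2% and 23.2%, beside 31.0% and 30.7% of all genes; median -1.32 against 0.03), with vegt.S at 0.317 ± 0.184 CPM and t.L at 3 counts over the libraries with both (edgeR adjusted p = 6.91e-07 and 4.32e-07). vegt.S and t.L were named for these comparisons, so their high levels in the 2 libraries with most aplnr.S follow from that choice.

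With Chordin 12 of these 56 genes rose and 22 fell (21.4% and 39.3%, beside 31.7% and 32.0% of all genes; median -1.14, or -0.41 at bounds, against 0), with fgf8.L 37.8-fold higher and the BMP ligand gene bmp4.S 7.14-fold lower (edgeR adjusted p = 1.66e-06 and 1.17e-06). With both proteins 17 rose and 17 fell against control (30.4% each, beside 33.3% and 32.1%; median 1.1, or 0.63 at bounds, against 0.03), with fgf8.L 66.3-fold higher and bmp4.S 8.94-fold lower (edgeR adjusted p = 6.75e-07 and 8.36e-07). fgf8.L stood at 14.5 ± 0.405 CPM with Chordin, 6.01 ± 2.30 with Pinhead and 25.5 ± 1.15 with both, against 0.378 ± 0.0223 in control (SD, n = 2). It was therefore above control in all 6 libraries in which aplnr.L was high. However, fgf8.L was named for its rises with Chordin and with both. With Pinhead, 28.6% of all genes tested lay above control without overlap.

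Of 28 tested genes for other receptors and ligands of migrating cells, 9 rose and 11 fell with Chordin (median -0.33 against 0 over all genes), 4 rose and 6 fell with Pinhead (-0.06 against -0.0050), and 11 rose and 10 fell with both (0.30 against 0.03), each against control. From Pinhead to both, 10 rose and 9 fell (-0.12 against 0.03). The shares up and down were 32.1% and 39.3% with Chordin, 39.3% and 35.7% with both and 35.7% and 32.1% from Pinhead to both, near those of all genes (31.7% and 32.0%, 33.3% and 32.1%, and 30.7% and 31.0%). With Pinhead they were 14.3% and 21.4%, beside 6.75% and 3.92%. The Pinhead rises numbered 2 without library 1 and 7 without library 7 or 8, and its falls 3 without library 1. The FGF receptor genes fgfr1.L and fgfr4.L rose 7.40-fold and 5.19-fold with Chordin (edgeR adjusted p = 2.81e-08 and 2.52e-07), and the chemokine genes cxcl12.L and cxcl12.S fell 49.1-fold and 15.7-fold (edgeR adjusted p = 1.16e-06 and 8.99e-07). With Pinhead the chemokine receptor gene cxcr4.L fell 2.30-fold and the growth factor gene pdgfa.L 3.01-fold (edgeR adjusted p = 0.000247 and 0.000402).

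The genes whose profile lay nearest to each copy were different for the 2 copies, which had been chosen because their levels part. Likeness was the Euclidean distance between log2(CPM + 1) profiles over the 8 libraries, each centred on its mean, among 16169 named genes with a mean of at least 1 CPM. The libraries share their group structure, so the distances are a description. The genes named depend on this measure: by Pearson r in its place, 2 of the 8 nearest genes were shared for aplnr.L and 1 of the 8 for aplnr.S. For aplnr.L the 8 nearest genes were etv1.L (distance 0.355, r = 0.989), etv1.S, dag1.L, gas1.S, fmnl2-like.L, p2ry11.L, ralgds.L and pprc1-like.L (0.686). The etv1 copies encode an ETS factor that responds to FGF signalling, dag1 encodes dystroglycan, gas1 a membrane-bound co-receptor for hedgehog ligands, p2ry11 a nucleotide receptor and ralgds an activator of the small GTPase Ral. etv1.L stood at 29.9 ± 4.01 CPM for control, 132 ± 5.57 for Chordin, 91.1 ± 0.754 for Pinhead and 122 ± 3.55 for the pair (SD, n = 2). Like aplnr.L, it was lowest in control and highest with Chordin, a likeness for which it was picked.

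For aplnr.S the 8 nearest genes were wnt5a.S (distance 0.822, r = 0.965), wdr86.L, znf703.L, tmem8b.L, dpysl5.L, mespb.S, fam107b.S and trpv4.L (1.2). wnt5a encodes a Wnt ligand of cell movement, mespb a factor of the segmenting presomitic mesoderm, znf703 a zinc finger repressor and trpv4 a cation channel. wnt5a.S stood at 0.539 ± 0.165 CPM for control, 2.06 ± 0.0587 for Chordin, 11.3 ± 0.0880 for Pinhead and 2.59 ± 1.64 for the pair (SD, n = 2), and mespb.S, with 0 counts in control, at 4.41 ± 0.190 CPM with Pinhead. All 8 had their highest mean with Pinhead alone, which follows from their choice by likeness to aplnr.S. The other aplnr copy was at place 8796 in the order of aplnr.L and at place 859 in that of aplnr.S, at a distance of 2.60 (r = 0.543 between the copies).

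**Figure D5:**
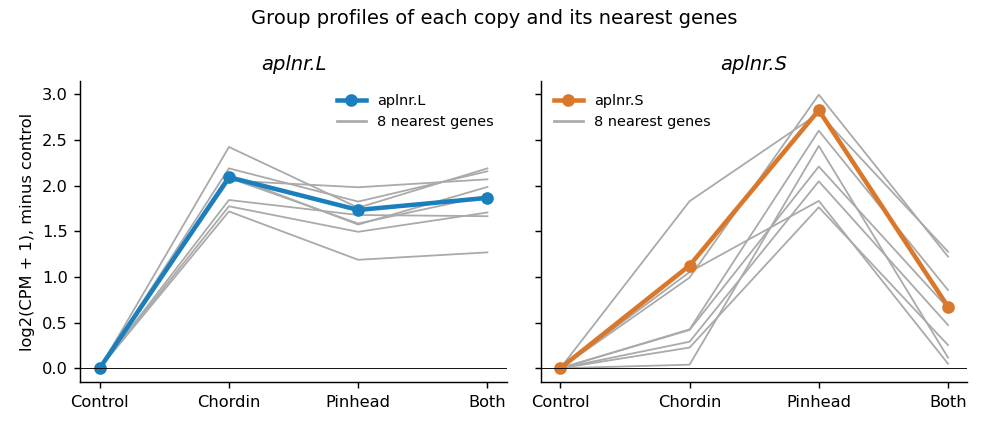
Group means as log2(CPM + 1) minus control for aplnr.L and aplnr.S (thick lines) and the 8 genes nearest to each by distance over the 8 libraries (thin lines). The aplnr.L profile is near level over the 3 groups with an expressed protein, and the aplnr.S profile peaks with Pinhead alone.

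The genes next to each copy were read from the gene order of the RefSeq annotation of assembly Xenopus_laevis_v10.1, since the build of the counts is not given in the sources used here, and no coordinates are therefore given. This step was chosen after the values had been seen. The 3 named protein-coding genes on each side had the same symbols and order for both copies: ndrg2, arhgef40 and znf219 on one side, and morc2, smtn and selenom on the other. The selenom copies were not analysed here. Near aplnr.L, 3 of 5 tested genes rose and 1 fell with Chordin, and near aplnr.S 2 of 5 rose and 1 fell. With both proteins the counts were the same. Calls up and down made up 31.7% and 32.0% of the 23130 genes for Chordin explants. For the pair they made up 33.3% and 32.1%. Whether 5 genes beside a copy differ from these shares was not tested. With Pinhead 1 of 5 genes rose near each copy, beside 6.75% of all genes tested: znf219.L near aplnr.L and arhgef40.S near aplnr.S. The rise of znf219.L (0.92 ± 0.21, edgeR adjusted p = 0.0271) ranged from 0.66 to 1.27 without single libraries. Its call was lost without any 1 of libraries 2 to 6. Without library 1, 7 or 8, without the filter or in DESeq2, 2 genes near aplnr.S rose with Pinhead.

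The gene arhgef40.S lies near aplnr.S but was high in the same groups as aplnr.L. It stood at 1.90 ± 0.465 CPM for control, 22.1 ± 0.523 for Chordin, 13.3 ± 1.77 for Pinhead and 20.7 ± 0.591 for the pair (SD, n = 2). It rose by 3.52 ± 0.19, 2.79 ± 0.19 and 3.43 ± 0.19 on the log2 scale (edgeR adjusted p = 5.24e-07, 6.55e-05 and 7.18e-07). Its interaction was -2.88 ± 0.24 (edgeR adjusted p = 0.000306). The copy near aplnr.L, arhgef40.L, stood at 2.63 ± 0.378, 7.92 ± 0.313, 3.51 ± 0.103 and 9.06 ± 0.398 CPM over control, Chordin, Pinhead and the pair, and was called higher with Chordin and with both (edgeR adjusted p = 8.11e-05 and 3.76e-05) and not with Pinhead (0.42 ± 0.21, adjusted p = 0.238).

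The zinc finger genes znf219.L and znf219.S rose with Chordin by 5.43 ± 0.17 and 4.99 ± 0.26 (5.83 for znf219.S without library 1; edgeR adjusted p = 2.80e-08 and 4.25e-07). The smoothelin copies went apart: smtn.L rose from 5.74 ± 0.506 to 28.3 ± 1.83 CPM with Chordin, and smtn.S fell from 7.31 ± 0.502 to 2.34 ± 0.250 CPM (SD, n = 2; edgeR adjusted p = 9.37e-07 and 0.000192). The ndrg2.L gene fell 2.10-fold with Chordin (edgeR adjusted p = 9.49e-06), while ndrg2.S and the morc2 copies were called in none of the 3 comparisons with control (edgeR adjusted p 0.0622 to 0.936).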

How the data were processed

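The deposited table holds the authors' raw counts per gene as whole numbers, 2 runs for each of 8 libraries of ectodermal explants. The labels name an RNeasy kit and paired-end reads of 150 bp, and the submitters' processing notes name HISAT2. Not given in the sources used here: its version, the counting tool, the strand setting, the genome build and the annotation. The runs of a library were summed, leaving 45035 genes, with 1 line not analysed here.

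In R 4.3.3 with edgeR 4.0.16, library scaling used TMM (factors 0.950 to 1.05) and low genes were removed by filterByExpr (at least 10 counts, 15 in total), which left 23130 genes, both aplnr copies among them. The quasi-likelihood fit had 1 coefficient for each group and left 4 residual degrees of freedom, and 6 comparisons were tested with two-sided p-values adjusted by Benjamini-Hochberg over all genes and called under 0.05. Standard errors were derived from the F statistic. These steps were tested on simulated data in which genes changed with Pinhead alone, so changes as wide as those with Chordin were not covered. DESeq2 1.42.0, RLE scaling, no filter, fits of the compared groups alone and leaving out each library were the alternatives. Figures used Python 3.11.15 and matplotlib 3.10.9.

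The aplnr copies and the gene lists were chosen with earlier results of these data known. The named genes were the ligand copies, up to 3 members per list, direction and comparison with the smallest adjusted p among called genes without overlap and at least 1 CPM, the 8 genes nearest to each copy, and the 3 pairs per direction that shifted most from control to both. Single marker genes and the other copies of some named genes were added without this rule. A level from 0 counts was bounded at 3 counts.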

Additional observations from a re-analysis of the deposited data

Results flagged for a closer look

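For both receptor copies the Pinhead effect had opposite signs without and with Chordin in every library: higher than control with Pinhead alone, and lower than Chordin alone with both. The effect with Chordin was small, -0.24 ± 0.13 for aplnr.L and -0.58 ± 0.22 for aplnr.S on the log2 scale. Of all genes tested, 28.6% lay higher without overlap in the former comparison and 27.1% lower in the latter. The share of genes with both patterns was not counted. The difference of the effects was -2.16 for aplnr.L and -4.10 for aplnr.S on the log2 scale. These differences were not tested, since the copies were chosen for this pattern, and pnhd.L was 2.18-fold lower with both than with Pinhead alone.

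A difference of the Pinhead effect with and without Chordin was called by the interaction term of the edgeR fit for apela.L (4.92, adjusted p = 0.00881) and apela.S (3.2, adjusted p = 0.0143), the Elabela copies. The apela.L call was lost without library 4 (adjusted p = 0.0568), and that of apela.S without library 2, 3, 4 or 5 (adjusted p = 0.0560 to 0.0839). Among the genes beside the receptor copies it was called for arhgef40.S (-2.88, adjusted p = 0.000306), znf219.L (-0.90, adjusted p = 0.0487) and smtn.S (1.28, adjusted p = 0.0346) in edgeR. Over all genes tested the interaction was called for 11.0%. The znf219.L call was lost without any 1 of libraries 1 to 6 (adjusted p = 0.0543 to 0.181). The smtn.S call was lost without any 1 of libraries 1 to 6 or 8 (adjusted p = 0.0640 to 0.137) and in DESeq2 (adjusted p = 0.0925).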

How the results depend on the processing

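No paired analysis was possible because the libraries are numbered 1 to 8 and no 2 groups share a number. The direction of every aplnr difference from control, and of both against each single protein, was kept under RLE scaling, scaling by library total and without each library. Without single libraries the aplnr.L log2 fold change ranged from 2.16 to 2.46 with Chordin, 1.79 to 2.08 with Pinhead and 1.93 to 2.22 with both against control, from -0.39 to -0.13 for both against Chordin and from 0.0047 to 0.26 for both against Pinhead. The percent of copy pairs that shifted at least as far as aplnr ranged from 2.24% to 5.88% (Pinhead against control), 16.0% to 36.2% (both against control) and 2.74% to 8.71% (both against Pinhead), and was 1.42% and 2.84% for the first and last among pairs of at least 5 CPM.

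The number of genes called over the whole table was 2469 with Pinhead, 560 to 4488 without single libraries, 3868 without the filter and 3818 with the 2 groups alone. For both against Chordin it was 2476, 648 to 3891 without single libraries and 4128 without the filter, and for the interaction 2536, 527 to 4405 and 4495. With Pinhead, the rises of the signalling and processing list ranged from 0 to 5 without single libraries (2 in DESeq2). Its falls ranged from 0 to 2 (0 with RLE scaling or DESeq2, 2 without the filter or with the 2 groups alone). The endothelial falls ranged from 0 to 3 (0 in DESeq2, 2 without the filter, 4 with the 2 groups alone), the mesoderm falls from 2 to 10 (10 without the filter or with the 2 groups alone), and the migration list from 2 to 7 rises and 3 to 9 falls. Without single libraries the Pinhead difference of apela.L ranged from -0.087 (without library 2) to 0.34, with -0.016 without library 6, and that of apela.S from -1.22 to 0.030 (without library 2). By Pearson r in place of distance, 2 of the 8 nearest genes of aplnr.L and 1 of those of aplnr.S were shared. The cause of these moves was not tested. Shares of aplnr.L in each run lay within the intervals of the summed runs. The low counts of aplnr.S in control (21 and 23) and of the ligand genes with Chordin limit the precision of their folds.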
